A study of Rattus norvegicus with 36 samples.

Results

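The miR-379 to miR-410 cluster and the miRNAs close to it lie in the imprinted Dlk1-Dio3 domain, and in these rats they took a far larger share of the miRNA counts in brain than in serum. Their summed share was 2.63% ± 0.265 (SD, n = 12) in prefrontal cortex (PFC), 2.78% ± 0.311 (SD, n = 12) in the nucleus accumbens (NAc), which lies in the ventral striatum, and 0.0633% ± 0.0343 (SD, n = 12) in serum. The members were chosen by miRNA number from the names in the table of counts. The rule itself uses no level, but it was set with earlier results of these data known. That rule found 79 of 861 names, of which 706 are annotated rat miRNAs and 155 are predicted. The Rtl1 antisense miRNAs of the same domain, 9 names in the table, are not members.

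Adult male Sprague Dawley rats, 8 weeks old on arrival, had a jugular catheter implanted and self-administered heroin at 0.075 mg/kg per infusion for 6 h a day over 10 sessions, or saline for 10 days. Every group of 6 libraries is 1 tissue (PFC, NAc or serum) under 1 treatment, so there are 6 groups and 36 libraries, which the labels call biological replicates. Tissue was taken within 60 min after the last session, and the saline rats had undergone the same surgery. Brain RNA was total RNA of dissected tissue. Serum RNA came from a kit for exosomal RNA, so tissue and RNA preparation cannot be told apart in any comparison of serum with brain.

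In mouse, the miRNAs of the domain are cut from long noncoding transcripts that are made from the maternal chromosome only, and a hairpin can yield a mature miRNA from its 5p arm, its 3p arm or both. A mature miRNA pairs with messenger RNAs mainly through its seed, bases 2 to 8. In cultured rat hippocampal neurons, neuronal activity drives the cluster through the transcription factor Mef2, miR-134 restrains the size of dendritic spines by repressing Limk1, and miR-485 represses the synaptic vesicle protein SV2A.

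Mature sequences from RefSeq (build GRCr8) were matched to 78 of the 79 names by name, miR-679 being the one without an entry, and are written 5′ to 3′ with the seed in capitals. The first group of sequences below holds the members that lead the counts in brain, together with miR-381-3p, which differs from miR-300-3p by the substitution G4A over the 18 bases of its entry (positions counted from the 5′ end of miR-300-3p). That substitution lies in the seed. The second group holds the members that take a larger share in serum than in brain, the third the members with the clearest differences between the NAc and the PFC, and the last pair is miR-382-3p and the antisense name miR-3592, whose counts were nearly equal.
miR-379-5p: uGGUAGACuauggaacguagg
miR-541-5p: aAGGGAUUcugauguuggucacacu
miR-323-3p: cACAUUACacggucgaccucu
miR-329-5p: aGAGGUUUucugggucucuguuuc
miR-300-3p: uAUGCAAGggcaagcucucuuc
miR-381-3p: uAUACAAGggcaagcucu
miR-382-5p: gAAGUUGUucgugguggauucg
miR-134-5p: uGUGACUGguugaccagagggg
miR-494-3p: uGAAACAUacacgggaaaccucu
miR-369-3p: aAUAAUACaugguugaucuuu
miR-487b-3p: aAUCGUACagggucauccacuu
miR-410-3p: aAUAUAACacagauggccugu
miR-382-3p: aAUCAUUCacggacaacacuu
miR-3592: aAGUGUUGuccgugaaugauu

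The members had few seeds in common. They carried 71 distinct seeds, and 6 seeds were shared by more than 1 member. The most abundant shared seed, UGGAUAU, belonged to miR-376b-5p and miR-376c-5p, which differ by G19U. Their levels differed by far: miR-376b-5p averaged 98.7 CPM (counts scaled to a library total of 1000000) in the PFC, and miR-376c-5p 0.158 CPM. Outside the cluster, miR-329-3p shares its seed with miR-362-3p and miR-410-3p with miR-344b-1-3p. Reads of near-identical members may have been split between them, because the rule for reads that match several names is not given in the sources used here. For miR-300-3p and miR-381-3p, which averaged 1636 and 13.1 CPM in the PFC, the split is uncertain for that reason.

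All 41 hairpins with a RefSeq entry lie on chromosome 6 of GRCr8, 39 of them on the plus strand. The cluster proper holds 34 hairpins within 36.4 kb, from Mir379 (start 134543445) to Mir410 (end 134579838). The other 7, Mir770 to Mir370, start 245 to 189 kb before Mir379. The cluster proper supplied most of the counts of the members, 94.6% ± 0.727 (SD, n = 12) for PFC libraries, 94.96% ± 0.806 (SD, n = 12) for NAc libraries and 95.3% ± 2.01 (SD, n = 12) for serum libraries. Neighbouring hairpins differed widely in level. Mir379 gave 9258 CPM in the PFC over both arms, Mir411 starts 1.15 kb further on and gave 999 CPM, and Mir494, 6.67 kb from Mir379, gave 25.5 CPM. The lowest, Mir544, gave 0.176 CPM and lies between Mir539 at 74.9 CPM and Mir382 at 1626 CPM.

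**Figure D1:**
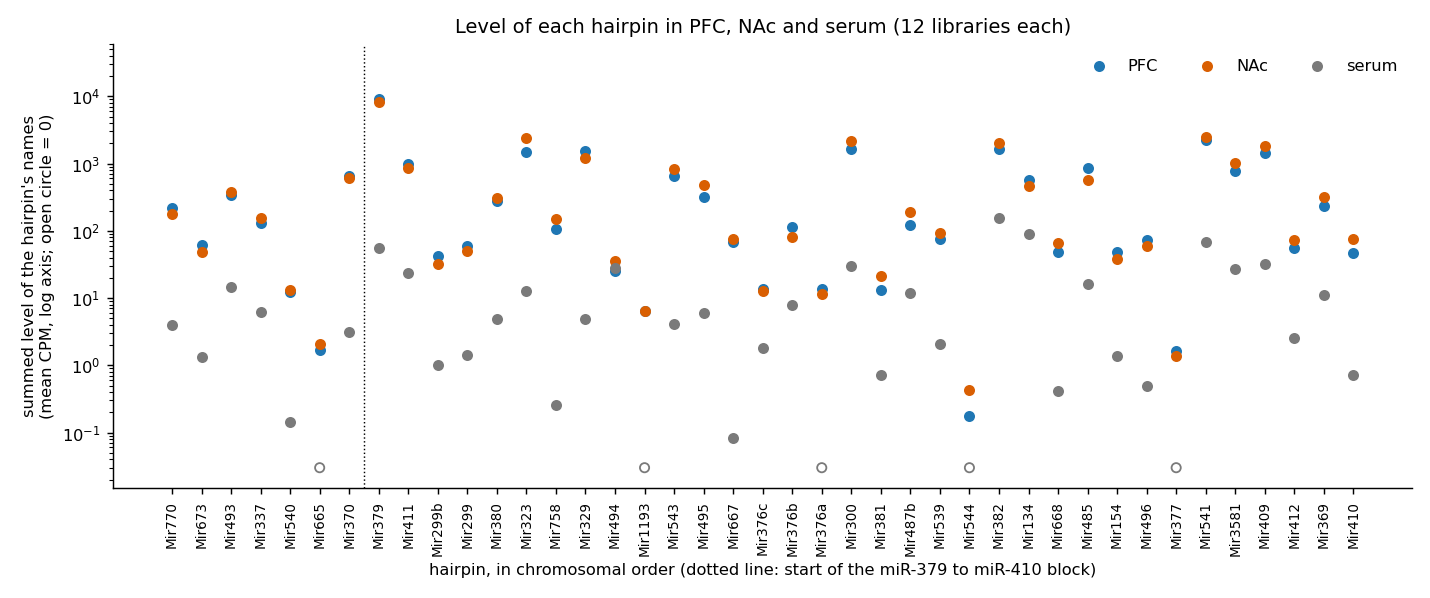
Mean summed level of the names of each hairpin (CPM, log axis) in the PFC, the NAc and serum, 12 libraries each, with the hairpins in chromosomal order and a dotted line at the start of the cluster proper; open circles stand for 0. Mir379 is highest in both brain regions, at 9258 CPM in the PFC and 8316 CPM in the NAc, while the highest serum mean is 157 CPM, for Mir382.

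Depth differed by tissue and bounds what can be seen. The PFC libraries held 3.42 to 20.8 M counts (M, 1000000), the NAc libraries 5.89 to 24.8 M and the serum libraries 0.157 to 2.78 M. A name with no count could still stand at up to 0.121 to 0.877 CPM in a brain library and at up to 1.08 to 19.1 CPM in a serum library, the level of 3 counts. These limits cover counting error only. Of the 79 members, 68 were detected in all 24 brain libraries and 4 in all 12 serum libraries. Serum held 4317 member counts among 7601018 counts, 26 members had no serum count at all, and 13 had at least 50. A total of 11 members averaged under 1 CPM in brain.

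Several libraries stood apart from the rest of their group. PFC saline 8 and 12 differed from the other PFC libraries in many members: miR-134-5p was at 1987 CPM in PFC saline 8 against 345 to 473 in the other 5 PFC saline libraries, and PFC saline 12 held 2804 CPM of miR-485-3p against 104 to 146. Summed red cell miRNAs were 294 and 706 CPM in these 2 libraries and 70.3 to 142 CPM in the other PFC libraries. Serum saline 10, 11 and 12 had summed levels of the members of 0.109, 0.113 and 0.0972% against 0.0102 to 0.0443% in serum saline 7, 8 and 9. Their summed neuron miRNAs, which in serum were mostly miR-128-3p, were 26858, 50895 and 11972 CPM against 14535 to 18297 CPM, and their summed muscle miRNAs 74733, 52719 and 104935 CPM against 15608 to 47773 CPM. Markers high in the accumbens (miR-1298, miR-7a-5p and miR-448-3p) summed to 25992 CPM in NAc heroin 2 against 43362 to 121194 in the other NAc libraries. They summed to 80405 CPM in PFC heroin 5 against 7535 to 24275 in the other PFC libraries. The part of these differences in the results was not tested.

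In the brain a few members carried most of the counts. miR-379-5p, which heads the cluster, averaged 9140 CPM in the PFC and 8199 CPM in the NAc. Next came miR-541-5p (2236 and 2497 CPM), miR-300-3p (1636 and 2145 CPM), miR-323-3p (1445 and 2391 CPM) and miR-329-5p (1328 and 977 CPM). The top 5 members took 60.2% of the member counts in the PFC and 59.6% in the NAc. In the PFC saline rats miR-379-5p was at 6085, 8019, 8196, 10588, 10368 and 7977 CPM, and in the PFC heroin rats at 6987, 10458, 6458, 15261, 9947 and 9337 CPM. In the NAc it was at 7621, 7355, 5141, 8854, 6898 and 7416 CPM with saline and at 7685, 8885, 5307, 12075, 11896 and 9253 CPM with heroin. All 4 brain groups overlapped. In the PFC miR-300-3p, miR-323-3p and miR-329-5p lay within the spread of each other. In the NAc miR-329-5p was at most 1206 CPM, below every NAc library of miR-300-3p, which began at 1334 CPM, and of miR-323-3p, which began at 1610.5 CPM. miR-382-3p, with a mean of 1368 CPM, ranked above it there.

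miR-134-5p, the regulator of Limk1, averaged 567 CPM in the PFC and 460 CPM in the NAc. miR-485-5p was at 263, 1328, 272, 333, 342 and 1484 CPM in the PFC saline libraries 7 to 12, with PFC saline 8 and 12 above the rest, and at 206 to 407 CPM in the NAc saline libraries. For miR-495, which represses human BDNF in reporter assays, levels were 203 to 609 CPM in the PFC saline group and 360.1 to 419 CPM in 5 NAc saline libraries, with NAc saline 12 at 1217 CPM. The Rtl1 antisense miRNAs nearby, which include miR-127 and miR-434, summed to 5.24% of a PFC library, 4.94% of a NAc library and 0.0337% of a serum library on average, more than the members in brain and less in serum.

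Most hairpins of the cluster gave mainly 1 arm. Of 37 hairpin names with both arms in the table, 34 had at least 1000 counts in the PFC. Among these, the 5p arm held over 90% of the counts on average in 7, the 3p arm in 14, and neither in 13. The same arm led in the PFC and the NAc in 32 of 34. The 5p arm held 98.6% ± 0.794 (SD, n = 12) of miR-379 and 99.3% ± 0.316 (SD, n = 12) of miR-134 in the PFC, while the 3p arm held nearly all of miR-300, miR-323 and miR-758. miR-382 was mixed, with a 5p share of 47.8% ± 18.2 (SD, n = 12) in the PFC and 33.1% ± 5.12 (SD, n = 12) in the NAc.

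Some members had nearly the same counts as a name on the opposite strand. miR-382-3p and miR-3592 pair over 21 complementary bases, and their counts over all libraries, 357330 and 356227, differed by 0.155%. The same held for miR-539-5p with miR-3576, miR-380-5p with miR-3579, miR-409a-3p with miR-409b and miR-369-5p with miR-3578, so 5 of the 9 antisense pairs with a member differed by under 1%. Whether counting used the strand is not given in the sources used here, so the counts of these 5 pairs cannot be assigned to a strand, and miR-409b is itself a member. Near-equal counts were not particular to the members. Outside the domain, let-7a-5p and miR-3596a had 2107849 and 2107847 counts, and miR-9a-5p and miR-9b-3p 44573001 and 44412818. Others differed widely, such as miR-29a-3p and miR-3556a by 83.3%. Over all names, 31 pairs with at least 500 counts differed by at most 5%. Both names of such a pair enter the library totals. With repeated names counted once the summed level of the members in brain was higher.

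NAc and PFC were compared within each treatment, to ask which members differ between 2 regions of the reward circuit. In saline rats 2 members were higher in the NAc and none was lower, of 67 tested with the quasi-likelihood test of edgeR at an adjusted p under 0.05. Over all names 33 of 467 (7.07%) passed, 3.64% higher and 3.43% lower, so the members were called no more often than names in general. At an unadjusted p under 0.05 there were 10 members, where 24.2% of all names were. The median log2 difference was -0.03 over the members and -0.09 over all names tested. Fewer cells of a type and less RNA per cell cannot be told apart in such tissue.

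miR-369-3p, the 3p arm of a hairpin at the end of the cluster, was at 152, 212, 309, 245, 154.1 and 305 CPM in the NAc saline libraries and at 88.1, 74.8, 129, 131, 52.1 and 23.6 CPM in the PFC saline libraries. The groups did not overlap. The log2 difference was 1.32 ± 0.38 (SE) with an adjusted p of 0.0496 by edgeR. miR-487b-3p was at 181, 268, 264, 208, 192 and 259 CPM in the NAc and at 156, 138, 159.7, 98.8, 82.9 and 88.6 CPM in the PFC, again without overlap, with a log2 difference of 0.83 ± 0.23 (SE) and an adjusted p of 0.0431 by edgeR. Both calls lie close to the threshold. With 1 library left out, both passed without PFC saline 9 and without PFC saline 12. Of these 2 members only miR-487b-3p passed without PFC saline 7 or 8, and only miR-369-3p without PFC saline 10. Without PFC saline 11 no member passed, and the same held when any 1 of the NAc saline libraries was left out. With a block for replicate number the adjusted p by edgeR was 0.0606 for miR-369-3p and 0.104 for miR-487b-3p, and with no filter on low counts no member passed.

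miR-323-3p was the other member whose saline groups did not overlap, at 2591, 3194, 3034, 1986, 2796 and 2248 CPM in the NAc and at 1569.9, 307, 1826, 1383, 1434 and 1581 CPM in the PFC. PFC saline 8 was far below the rest. Its log2 difference was 0.79 ± 0.37 (SE), and its adjusted p of 0.205 by edgeR did not pass. In all, 3 of 67 members had groups without overlap, against 6.85% of all names tested.

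Without PFC saline 8 and 12, 6 of 69 members and 56 of 491 names passed in saline rats, so the members were again called no more often than names in general. miR-369-3p (log2 difference 0.96), miR-487b-3p (0.67), miR-323-3p (0.56), miR-410-3p (1.08) and miR-485-3p (0.89) were then higher in the NAc. miR-329-5p (-0.73) was then lower in the NAc. miR-485-3p shows how much 1 library weighed: at 169, 319, 209.9, 293, 378.6 and 348 CPM in the NAc and at 135.7, 104, 135.8, 146, 116 and 2804 CPM in the PFC, its log2 difference was -1.06 ± 0.78 (SE) over all libraries.

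In heroin rats no member of 67 passed the comparison of the NAc with the PFC, where 8 of 464 names (1.72%) did. A total of 5 members had an unadjusted p under 0.05, where 20.9% of all names did, and DESeq2 called 1, miR-410-3p. The replicate numbers met the rule for pairing only here, and with the replicate block 53 names and 2 members passed: miR-485-3p, higher in the NAc by 0.69 ± 0.16 (SE, adjusted p 0.0206 by edgeR), and miR-412-3p, higher by 0.87 ± 0.25 (SE, adjusted p 0.0451 by edgeR). The 3p arm of miR-485 was at 159.8, 142, 250.1, 180.1, 324 and 398 CPM in the NAc and at 135, 146, 131, 116, 139 and 191 CPM in the PFC. The groups overlapped, and in 6 of 6 NAc libraries the level was above the PFC median. miR-412-3p was low, with means of 6.13 CPM in the NAc and 3.35 CPM in the PFC, and it was named only because it passed.

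**Figure D2:**
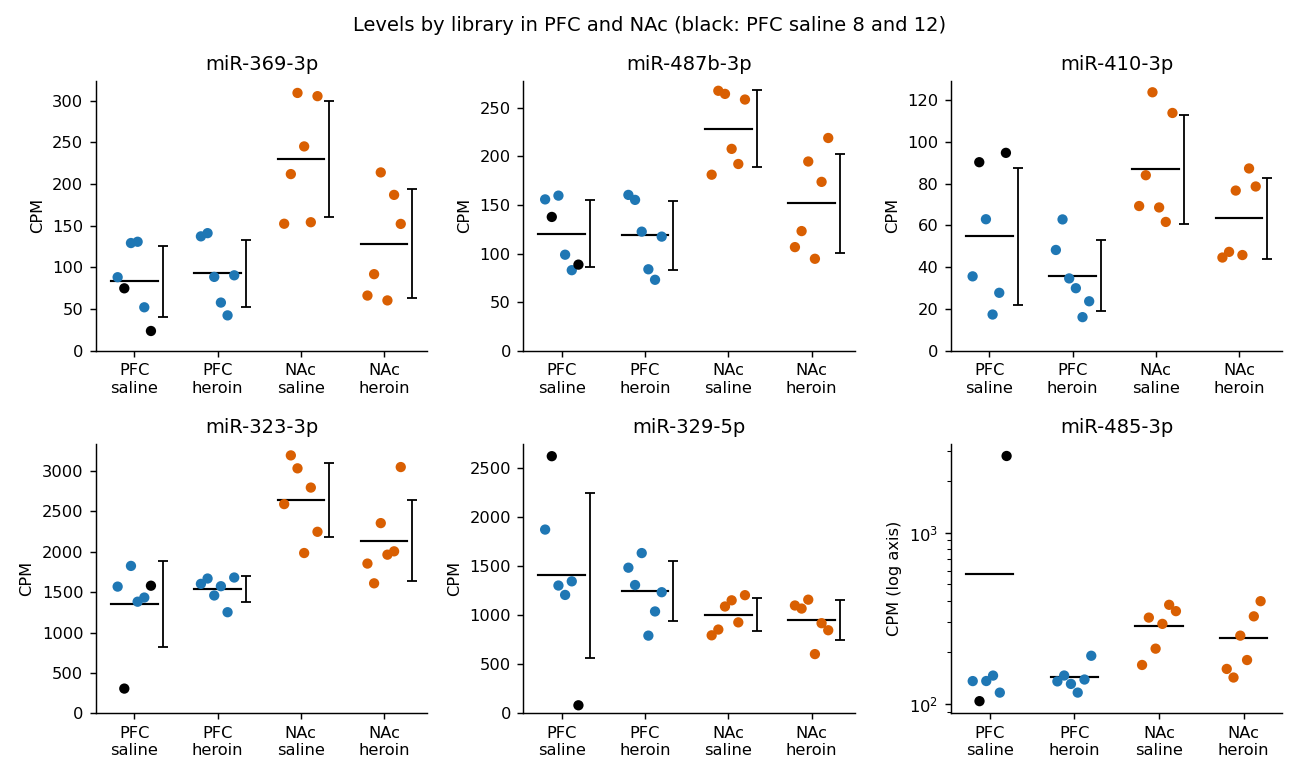
Levels (CPM; the axis of miR-485-3p is a log axis) of 6 members in each brain library by region and treatment; points are libraries, lines are group means and bars are SD, with no bar for miR-485-3p and PFC saline 8 and 12 in black. miR-369-3p, miR-487b-3p and miR-323-3p have NAc saline libraries above every PFC saline library, and miR-485-3p stands at 2804 CPM in PFC saline 12.

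miR-410-3p, which closes the cluster, had the smallest p of the members without the block in heroin rats. It was at 44.6, 47.3, 76.7, 45.8, 87.3 and 78.6 CPM in the NAc and at 48.2, 62.9, 34.6, 29.9, 16.1 and 23.7 CPM in the PFC. The log2 difference was 0.88 ± 0.26 (SE), with an adjusted p of 0.105 by edgeR. Without NAc heroin 2, the library low in accumbens markers, miR-410-3p and miR-485-3p both passed, with adjusted p of 0.0375 and 0.0470 by edgeR, and the names called rose to 38. For miR-369-3p and miR-487b-3p the log2 differences in heroin rats were 0.49 ± 0.31 (SE) and 0.38 ± 0.22 (SE), with adjusted p of 0.401 and 0.377 by edgeR.

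For none of 29 hairpins of the members did the balance of the arms pass the comparison of the regions, tested with limma on the log2 ratio of 5p to 3p counts with 0.5 added to each. Over all hairpins tested, 0 of 147 (0.0%) passed in saline rats and 1 of 145 (0.69%) in heroin rats. At an unadjusted p under 0.05 there were 6 of the 29 in saline rats and 4 in heroin rats, where 7.48% and 9.66% of all hairpins were. The smallest adjusted p was 0.345 in saline rats, shared by miR-376b at -0.93 ± 0.33 (SE), miR-410 at -1.38 ± 0.50 (SE), miR-382 at -1.61 ± 0.59 (SE) and miR-369 at -1.57 ± 0.59 (SE). In heroin rats it was 0.192, with miR-376a at -1.19 ± 0.37 (SE), all by limma. The value for miR-382 was -1.21 without PFC saline 8 and -1.18 without PFC saline 12, and that for miR-369 was -0.99 without PFC saline 12.

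Serum held little of the cluster, and most members there stood far below their brain levels. In saline rats 49 of the 50 members tested against the PFC were lower in serum, where 51.8% of all names were lower and 85.5% differed in either direction. Against the NAc 54 of 54 were lower, where 56.8% of all names were lower and 90.6% differed. In heroin rats 50 of 51 were lower than in the PFC, where 54.5% of all names were lower and 89.3% differed, and 52 of 53 were lower than in the NAc, where 59.9% were lower and 92.3% differed. Only 7 members reached the filter on low counts within serum, and the others passed it through their brain libraries. For those others the filter itself favoured a lower level in serum, so these counts and the medians below are a description and no independent support. They describe the members tested and say nothing of the 25 to 29 that were not tested. The median log2 difference from the PFC in saline rats was -5.51 over the members tested and -1.45 over all names tested. With the 4 members at 0 in serum placed at their bounds it was -5.30. The fall was not particular to the members: the Rtl1 antisense miRNAs gave a median of -5.39 in the same comparison, with 7 of the 8 tested lower. Without serum saline 10, 11 and 12, 64 of 65 members tested were lower than in the PFC and 66 of 66 than in the NAc. The medians were then -7.47 and -7.62, where all names gave -2.06 and -2.48. The filter took in more members here than the 50 and 54 above, so the medians are not over the same members. Members at 0 in serum were not placed at bounds in them, and the share of all names that were lower is not given.

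Scaling changed how far serum lay below brain. With library sizes alone the median of all names moved from -1.45 to -1.38 for the PFC in saline rats and from -2.18 to -0.95 for the NAc in heroin rats, and with median-ratio factors from -1.45 to -2.25 and from -2.18 to -2.25. The median of the members stayed between -5.36 and -6.87 under these 2 alternatives. With library sizes alone 1 member, of 51 tested against the PFC and of 53 against the NAc, had a positive value in heroin rats. Summed neuron miRNAs (miR-124-3p, miR-9a-5p, miR-128-3p and miR-218a-5p) were 11972 to 50895 CPM in serum saline and 221026 to 322607 CPM in PFC saline, and summed red cell miRNAs were 35424 to 82778 CPM and 70.3 to 706 CPM. Nearly all of the neuron sum in serum was miR-128-3p, with a median of 17764 CPM in serum saline and 62613 CPM in PFC saline. The medians of the other 3 differed more, at 6.498 and 1110 CPM for miR-124-3p, 450 and 173836 CPM for miR-9a-5p, and 423 and 4928 CPM for miR-218a-5p. The part of cell origin in the result was not tested.

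Some members were hardly present in serum. miR-496-3p, at 57.9 to 124 CPM in the PFC saline libraries, had no count in any serum saline library and was at least 77.5-fold lower there than in the PFC and at least 60.8-fold lower than in the NAc, against a floor of 3 counts over the group. In the same way miR-667-5p was at least 32.8-fold lower than in the PFC and miR-323-5p at least 20.1-fold lower, or 8.78-fold without PFC saline 8 and 12. In heroin rats miR-410-3p had no serum count and was at least 103-fold lower than in the NAc, or 40.6-fold without serum heroin 1, which held 2.78 M of the counts of its group. Leaving libraries out of these bounds was decided after the data were seen. Among members with more than 3 serum counts in saline rats, miR-485-3p differed from the PFC by -8.29 ± 1.08 (SE) on the log2 scale, and by -6.89 ± 0.56 (SE) without PFC saline 8 and 12. miR-329-5p differed by -7.86 ± 0.81 (SE), miR-370-3p by -7.45 ± 0.67 (SE) and miR-379-5p by -7.13 ± 0.82 (SE). These 4 values were lower without serum saline 10, 11 and 12, at -9.82, -9.71, -9.97 and -10.24 in that order. Serum saline 7, 8 and 9 held 0, 2 and 0 counts of miR-485-3p and 0, 3 and 2 of miR-329-5p. They held 0, 1 and 1 counts of miR-370-3p and 0, 17 and 8 of miR-379-5p. The values of miR-485-3p, miR-329-5p and miR-370-3p without the other libraries thus rest on counts near the floor and are not sizes to compare. miR-758-3p and miR-329-3p were listed with 1 and 2 counts in all over the serum saline libraries, and their folds are not given.

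**Figure D3:**
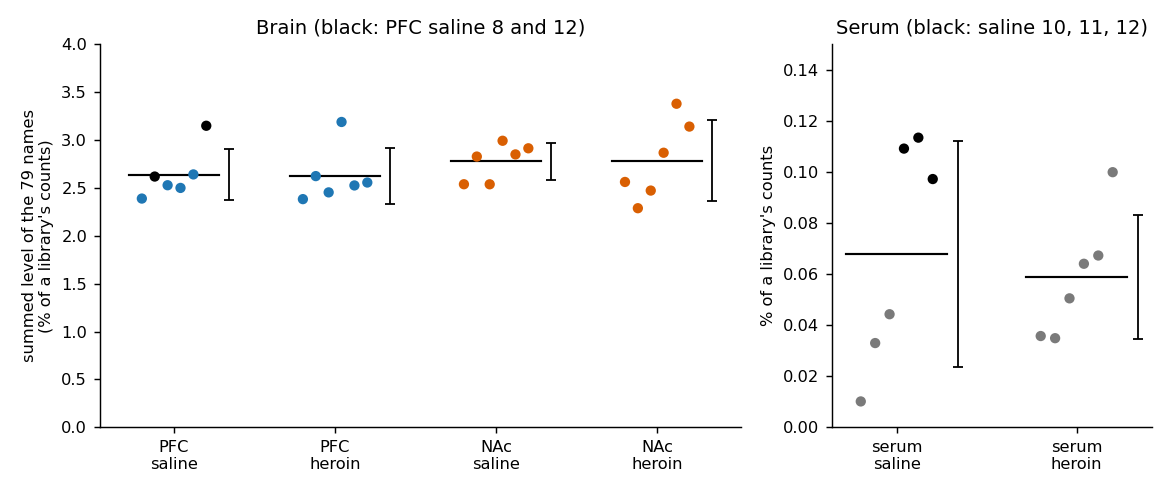
Summed level of the 79 members as a percent of the counts of each library, brain at left and serum at right on its own scale; points are libraries, lines are group means and bars are SD, with PFC saline 8 and 12 and serum saline 10, 11 and 12 in black. Brain libraries lie between 2.29% and 3.38% and serum libraries between 0.0102% and 0.113%.

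A few members were lower in serum by much less. miR-382-5p was at 57.2, 97.3, 97.2, 239, 152 and 168 CPM in the serum saline libraries and at 111, 112, 92.4, 173, 203 and 281 CPM in the serum heroin libraries, against 598 to 1329 CPM in PFC saline. Its log2 difference from the PFC in saline rats was -2.76 ± 0.43 (SE), and -4.14 without serum saline 10, 11 and 12. miR-134-5p was at 6.35, 37.1, 41.4, 118, 104.96 and 264 CPM in serum saline and at 35.6, 38.8, 86.2, 119.8, 90.3 and 120.3 CPM in serum heroin, a log2 difference from the PFC of -2.66 ± 0.65 (SE) in saline rats, and of -5.10 without those 3 libraries. miR-494-3p had the smallest difference: at 0, 18.1, 35.2, 59.0, 9.33 and 0 CPM in serum saline and 3.29 to 35.8 CPM in PFC saline the groups overlapped, and the log2 difference of -0.50 ± 0.73 (SE) did not pass (adjusted p 0.5263 by edgeR). It was -1.09 without those 3 libraries and -1.11 without PFC saline 8 and 12, and passed in neither case.

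The make-up of the members differed between serum and brain. miR-382-5p took 27.3% ± 10.96 (SD, n = 12) of the member counts in serum, against 2.85% ± 0.791 (SD, n = 12) in the PFC and 2.40% ± 0.411 (SD, n = 12) in the NAc, and all 12 serum libraries lay above the highest brain library, at 5.08%. miR-134-5p took 13.0% in serum against 2.16% and 1.62%, with 11 of 12 serum libraries above the highest brain library. miR-494-3p took 4.56% against 0.101% and 0.131%, with 10 of 12 above. miR-379-5p went the other way, from 34.6% in the PFC and 29.4% in the NAc to 6.63% in serum, and no serum library reached the lowest brain library. miR-541-5p, the second in brain, kept a like share, 11.2% in serum, 8.68% in the PFC and 9.01% in the NAc. These shares are a description with no test, and shallow serum libraries rest on as few as 16 member counts.

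Both arms of miR-382 were counted, and serum held nearly only the 5p arm. The 2 arms, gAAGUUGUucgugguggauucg (5p) and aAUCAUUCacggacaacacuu (3p), gave 1080 and 48 counts over all serum libraries, a 5p share of 95.7%, or 97.7% over the serum heroin and 92.7% over the serum saline counts. By library the 5p share was 100, 98.0, 92.2, 90.4, 85.5 and 94.4% in serum saline and 97.8, 82.1, 100, 98.2, 99.0 and 98.9% in serum heroin. In PFC saline it was 33.4, 83.0, 32.1, 45.2, 43.5 and 84.7%, with PFC saline 8 and 12 near the serum values. In NAc saline it lay between 25.4 and 35.7%, in NAc heroin between 32.7 and 42.7%, and in PFC heroin between 31.0 and 52.1%. The serum libraries were above all NAc and PFC heroin libraries. This comparison was chosen after the values were seen and has no test. Over all libraries the 3p counts nearly equal those of miR-3592 and cannot be assigned to a strand, so the 5p shares depend on an uncertain 3p count. Without serum saline 10, 11 and 12 the mean share in serum saline was 96.7% rather than 93.4%, 43.1 points above the PFC.

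**Figure D4:**
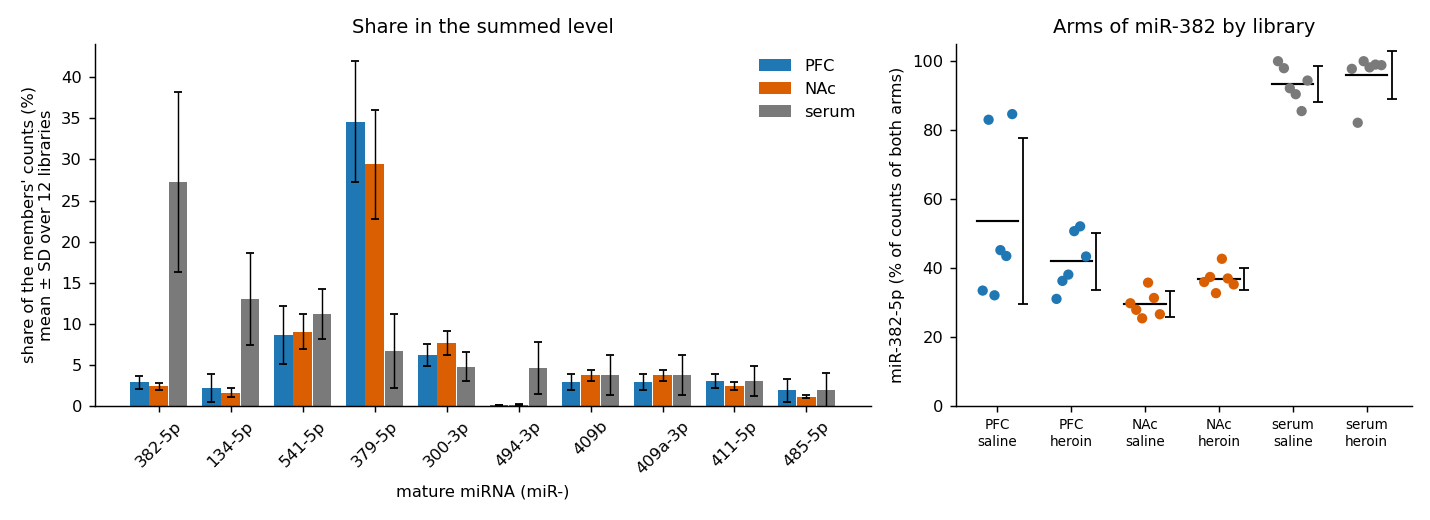
Left, share of the members' counts (percent) taken by 10 members in the PFC, the NAc and serum, as mean with SD bars over 12 libraries; right, the 5p share of miR-382 (percent of the counts of both arms) in each library, with group means as lines and SD bars. miR-382-5p takes 27.3% of the members' counts in serum and under 3% in both brain regions, and the 5p share of miR-382 is at least 82.1% in every serum library. The 3p counts of miR-382 nearly equal those of the antisense name miR-3592 over all libraries.

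The other hairpins with at least 50 serum counts did not go 1 way. The 5p share over all serum counts was 99.1% for miR-134, 98.5% for miR-541 and 96.5% for miR-379, all close to the brain shares. For miR-409a the mean 5p share over the libraries differed between serum and the PFC by -31.1 points, and for miR-493 by -38.9 points. For miR-369 it differed by 10.6 points and for miR-411 by 4.62 points, less than the SD of 30.4 and 17.2 points among serum libraries. The counts of miR-409a-3p nearly equal those of miR-409b.

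Within a group, correlations between members were higher in serum than in brain. The median correlation between members with at least 20 CPM across the 6 libraries of a group was 0.85 over 9 members in serum saline and 0.61 over 8 members in serum heroin, where all names gave 0.11 and 0.25. In the brain groups it was between -0.02 and 0.30, where all names gave 0.07 to 0.15. These correlations are over 6 libraries that share their depth and carry no test, and the part of serum saline 10, 11 and 12 in them was not tested.

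Heroin was compared with saline in each tissue, which is the question the study's design puts. No member passed in any tissue. In the PFC 0 of 68 members and 0 of 455 names (0.0%) passed with edgeR, and 3 members had an unadjusted p under 0.05 where 3.52% of all names did. In the NAc 0 of 68 members and 0 of 480 names (0.0%) passed with edgeR, and 8 members, 3 higher and 5 lower, had an unadjusted p under 0.05 where 6.25% of all names did. In serum 7 members reached the filter, 0 of 229 names (0.0%) passed with edgeR, and no member had an unadjusted p under 0.05 where 4.8% of all names did. DESeq2 called no member in any of the 3 tissues and 4 names in serum. No member had groups without overlap in any tissue, and hardly any name had. Over all names there were 0 of 455 in the PFC, 0 of 480 in the NAc and 1 of 229 (0.437%) in serum.

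The sizes of the heroin differences were centred close to 0 in brain. The median log2 difference of the members was -0.09 in the PFC and -0.11 in the NAc, where all names gave -0.05 and -0.07. With library sizes alone the medians of all names moved to -0.17 and -0.22, and those of the members to -0.25 and -0.25. The median SE of a member was 0.55 in serum, 0.38 in the PFC and 0.25 in the NAc. The summed level of the members was 2.62% ± 0.290 (SD, n = 6) with heroin and 2.64% ± 0.266 (SD, n = 6) with saline for PFC libraries, 2.78% ± 0.419 and 2.77% ± 0.193 (SD, n = 6 each) for NAc libraries, and 0.0587% ± 0.0243 and 0.0678% ± 0.0441 (SD, n = 6 each) for serum libraries. The groups overlapped in each tissue.

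**Figure D5:**
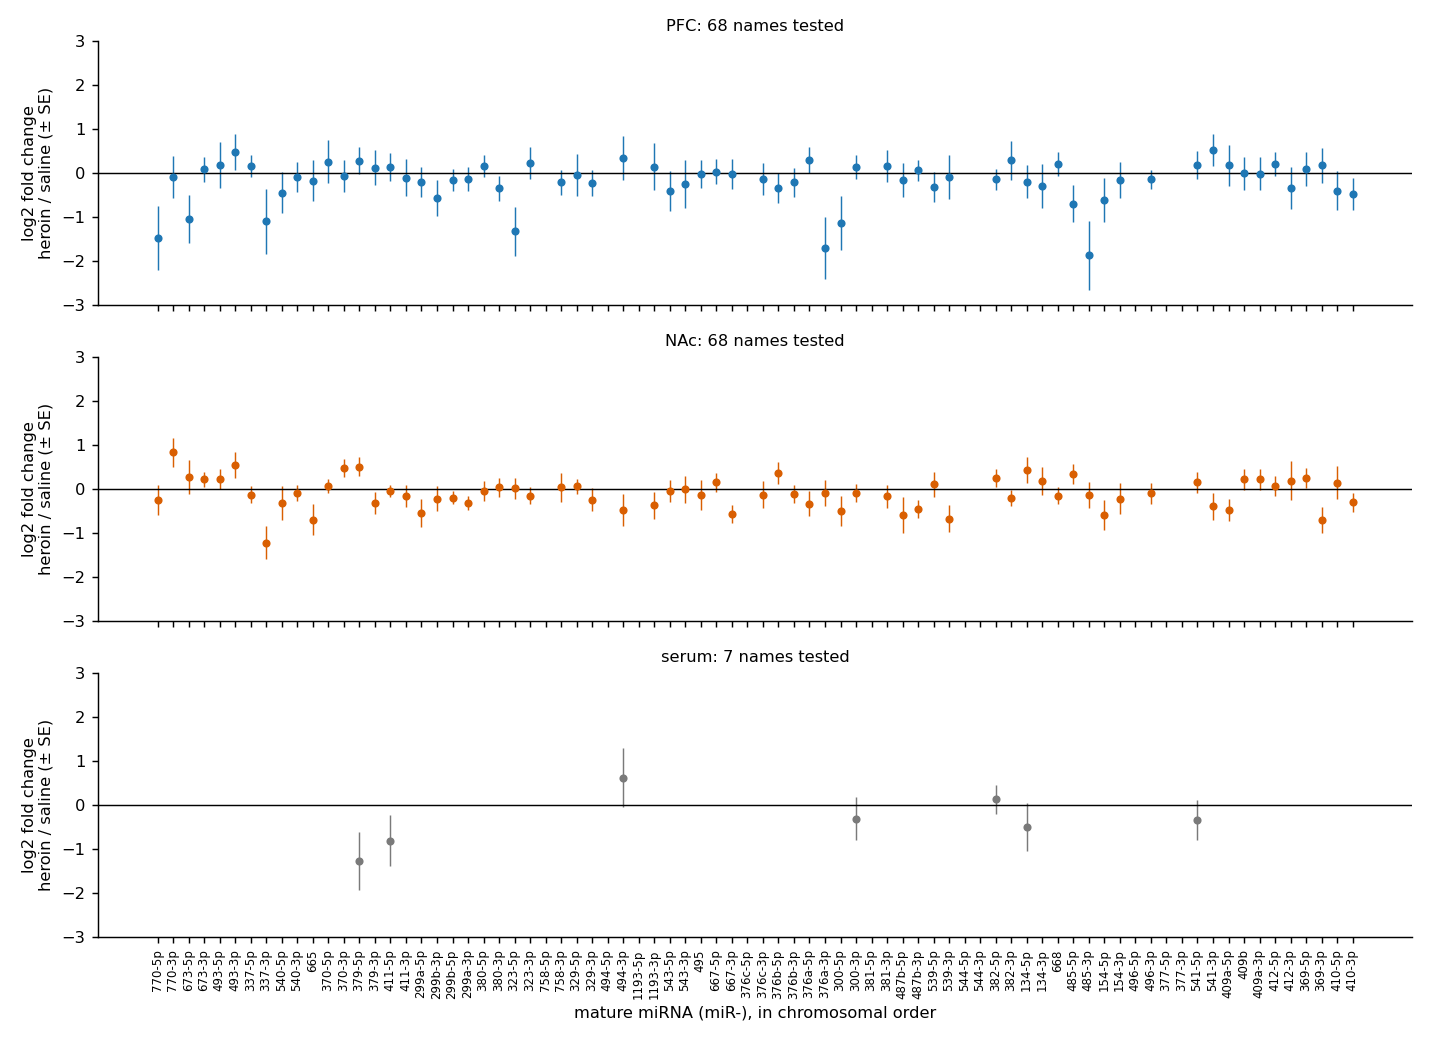
Log2 difference between heroin and saline for every member tested, in chromosomal order, in the PFC (68 members), the NAc (68) and serum (7); points are edgeR estimates and bars are SE. No member passed an adjusted p of 0.05, and miR-376a-3p, miR-323-5p, miR-485-3p and miR-770-5p lie below -1 in the PFC with PFC saline 8 and 12 included.

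In the PFC the differences of the members with the smallest p-values rested on 2 saline libraries. miR-376a-3p was at 1.96, 21.2, 1.44, 1.23, 0.692 and 12.1 CPM with saline and at 1.35, 1.75, 2.00, 1.17, 0.473 and 2.63 CPM with heroin, where PFC saline 8 and 12 were the 2 high values. Its log2 difference was -1.70 ± 0.70 (SE, adjusted p 0.995 by edgeR), and 0.25 without those libraries. miR-323-5p was at 7.83, 47.5, 9.63, 8.72, 7.90 and 85.7 CPM with saline and at 6.05 to 13.5 CPM with heroin. Its log2 difference was -1.32 ± 0.55 (SE), and 0.14 without them. For miR-485-3p the values were -1.86 ± 0.78 (SE) and 0.09, and for miR-770-5p -1.47 ± 0.72 (SE) and 0.24. For miR-673-5p they were -1.03 ± 0.55 (SE) and -0.17.

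In the NAc the smallest p belonged to a rare arm. miR-337-3p was at 1.65, 2.34, 2.18, 1.66, 0.969 and 4.14 CPM with saline and at 0.34, 0.679, 1.30, 0.651, 1.25 and 0.591 CPM with heroin. The groups overlapped, the log2 difference was -1.22 ± 0.37 (SE), and the adjusted p of 0.686 by edgeR did not pass. miR-667-3p was at 44.9, 48.9, 68.1, 43.7, 43.9 and 71.3 CPM with saline and at 24.1, 32.1, 47.3, 21.4, 33.7 and 36.7 CPM with heroin, a log2 difference of -0.58 ± 0.20 (SE). Only NAc heroin 3 reached into the saline range.

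miR-369-3p, which passed the comparison of the brain regions in saline rats, was at 66.1, 91.8, 214, 60.3, 187 and 152 CPM in the NAc of heroin rats against 152 to 309 CPM with saline, a log2 difference of -0.70 ± 0.29 (SE). miR-487b-3p differed by -0.45 ± 0.20 (SE) and miR-539-3p by -0.68 ± 0.31 (SE). On the other side were miR-379-5p at 0.51 ± 0.22 (SE), miR-370-3p at 0.48 ± 0.21 (SE) and miR-770-3p at 0.83 ± 0.33 (SE). None of these 6 passed the adjustment by edgeR. The heroin differences of miR-369-3p and miR-487b-3p use the same NAc saline libraries that were high when these members were called between the regions. A lower value with heroin was thus favoured in advance for them. Over the 68 members the NAc heroin difference went with the GC content of the mature sequence, with Spearman's rho of 0.32 and Pearson's r of 0.37, against 0.05 and 0.06 over 435 names. The NAc against PFC difference in saline rats, which uses the same NAc saline libraries, gave rho of -0.27 and r of -0.38 over 67 members. For heroin in the PFC rho was -0.06 over the members and -0.24 over 413 names. GC content was 47.6 to 70.6% in the 3 members higher and 23.8 to 63.6% in the 5 lower at an unadjusted p under 0.05. These correlations are across names that share libraries and carry no test, and the part of GC content in the differences was not tested. For the balance of the arms, 0 of the 29 hairpins of the members passed with heroin in either region, where 0 of 141 (0.0%) of all hairpins passed in the PFC and 0 of 151 (0.0%) in the NAc. At an unadjusted p under 0.05 there were 0 of the 29 in the PFC and 5 in the NAc by limma, where 0.709% and 7.95% of all hairpins were. The smallest adjusted p in the NAc was 0.440 by limma, with miR-337 at 1.07 ± 0.37 (SE) and miR-369 at 1.00 ± 0.40 (SE) on the log2 ratio of 5p to 3p.

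In serum the direction of the heroin difference of 4 of the 7 members tested rested on serum saline 10, 11 and 12. miR-379-5p was at 0, 17.1, 16.6, 129, 182 and 106 CPM with saline and at 24.8, 9.70, 12.3, 47.3, 42.2 and 60.2 CPM with heroin. The 3 high saline values were libraries 10 to 12, and the log2 difference of -1.28 ± 0.66 (SE) became 1.13 without them. miR-134-5p went from -0.50 ± 0.55 (SE) to 1.11, miR-541-5p from -0.35 ± 0.45 (SE) to 0.64 and miR-300-3p from -0.32 ± 0.50 (SE) to 0.54. The other 3 kept their sign without these libraries: miR-411-5p differed by -0.82 ± 0.59 (SE) and by -0.26 without them, miR-494-3p by 0.61 ± 0.67 (SE) and 0.56, and miR-382-5p by 0.12 ± 0.33 (SE) and 0.71. The smallest adjusted p of a member in serum was 0.744 by edgeR.

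Whether the heroin difference itself differed between tissues was tested as an interaction, and no member or other name passed with edgeR: 0 of 506 names (0.0%) between the NAc and the PFC, 0 of 462 (0.0%) between serum and the PFC and 0 of 489 (0.0%) between serum and the NAc. Members with an unadjusted p under 0.05 numbered 3 of 69, 5 of 55 and 4 of 58, where 3.75%, 5.41% and 7.98% of all names did. The nearest was miR-329-5p, the fifth member in the PFC. It was at 0, 3.01, 4.14, 14.1, 9.33 and 9.97 CPM in serum saline and at 0, 0, 6.16, 0, 0 and 1.63 CPM in serum heroin, 20 and 2 counts in all, and its NAc means were 1005 CPM with saline and 950.2 CPM with heroin. The interaction of serum with the NAc was -3.60 ± 0.85 (SE) with an adjusted p of 0.0749 by edgeR and 0.0186 by DESeq2. It was -2.44 with an adjusted p of 0.321 by edgeR without serum saline 10, 11 and 12. It also passed when any of 6 libraries was left out, NAc heroin 3, NAc saline 12, serum heroin 3 or serum saline 7, 8 or 9, with values from -4.68 to -3.22 over all libraries left out in turn.

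Other members with large interactions rest on very few serum counts, 4 in all for each of a pair of members. miR-410-3p had no count in serum heroin and was above 0 only in serum saline 11 and 12, at 6.997 and 1.66 CPM, and miR-496-3p had no count in serum saline and was above 0 only in serum heroin 1 and 4, at 1.08 and 3.15 CPM. Between the NAc and the PFC, miR-323-5p gave 1.42 ± 0.64 (SE) and miR-485-5p 1.12 ± 0.51 (SE). Without PFC saline 8 and 12 the values were -0.15 for miR-323-5p and 0.12 for miR-485-5p.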

How the data were processed

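The authors deposited counts per mature miRNA, 1 column per library, which were used unchanged. TPM values deposited beside them, per the file headers, equal the counts scaled to a library total of 1000000 and have no length term, so they serve as CPM. Per the submitters' processing notes, Bowtie and rn6 were used. How they were used, the version of Bowtie and the treatment of strand and of reads matching several names were not given in the sources used here. Inserts of 18 to 40 bp were sequenced, per the labels' protocols. Sequences and hairpin coordinates are from RefSeq (GRCr8).

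Counts were tested with the quasi-likelihood test of edgeR 4.0.16 in R 4.3.3 (TMM, filterByExpr with a minimum count of 10, Benjamini-Hochberg adjustment over all names tested, threshold 0.05), each comparison on its own groups. The SE is the log2 difference divided by the square root of F. Arm balance was tested with limma 3.58.1. Alternatives were other scalings, DESeq2 1.42.0, limma on log2(TPM + 1) and log2(TPM + 10), no filter, repeated names counted once, libraries left out, and a replicate block. The code was tested on simulated data.

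The labels do not say that a number marks an animal. Same-numbered NAc and PFC libraries of heroin rats deviated together in 6 of 6 pairs (r 0.205 to 0.748), in saline rats in 4 of 6 (-0.186 to 0.521), so the rule for pairing was met in heroin rats only. In both treatments 4 of 6 PFC libraries went best with the NAc library of their own number. The rule therefore does not settle whether numbers mark animals, and results with and without the block are given for both treatments. Members named are the calls, the smallest p-values and the most abundant by rule, plus a panel of neuronal members. The members and lists were chosen with earlier results of these data known. The neuron, oligodendrocyte, blood, muscle and accumbens miRNA lists serve as markers, and the accumbens list was drawn from these data.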

Additional observations from a re-analysis of the deposited data

Results flagged for a closer look

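In each group of 6 libraries, the summed level and the members with a mean of at least 20 CPM among those named were searched for a library far from the others. Of 117 groups of values, 16 held one. The chance rate of about 1 in 20 is for independent values. Members here share libraries, and some were named for their values in these data, so the 16 cannot be set against that rate. These are given as values.

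Of the 16, 6 lay in PFC saline 8 or 12 and 6 in NAc saline 10, 11 or 12. In PFC saline 12 the summed level was 3.15% against 2.39 to 2.64% in the others, miR-300-3p 2698 CPM against 1202 to 1635, and miR-485-3p 2804 CPM against 104 to 146. In PFC saline 8 miR-134-5p was at 1987 CPM against 345 to 473, miR-323-3p at 307 CPM against 1383 to 1826, and miR-539-5p at 127.4 CPM against 29.2 to 55.9.

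In PFC heroin 4 the summed level was 3.19% against 2.38 to 2.62%, and miR-495 was at 538.9 CPM against 190.3 to 287. In PFC heroin 5, which also held accumbens markers at 80405 CPM, miR-667-3p was at 18.2 CPM against 31.6 to 37.5. In NAc saline 12 miR-495 was at 1217 CPM against 360.1 to 419, miR-329-3p at 467 CPM against 192 to 258, and miR-539-5p at 96.3 CPM against 39.3 to 49.7. In NAc saline 11 miR-409a-3p and miR-409b, whose counts are nearly equal, were both at 1321 CPM against 863 to 1007. In NAc saline 10 miR-382-5p was at 991 CPM against 500.4 to 680.3. In serum heroin 6 miR-300-3p was at 65.0 CPM against 12.3 to 28.1.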

How the results depend on the processing

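Depth limits serum most: 1 count is 0.360 to 6.35 CPM there, and 7 members were tested for heroin. The cause was not tested where a value moved. Names called for heroin in serum were 4 with DESeq2, 1 with limma on log2(TPM + 10), 2 with no filter, 2 without serum saline 10, 11 and 12, and 0 to 2 with 1 library left out (2 without serum saline 8 or 9). For the interaction of serum with the PFC they were 2 with DESeq2, 1 with limma on log2(TPM + 10) and 0 to 2 with 1 library left out. For serum with the NAc, DESeq2 called 1 name, a member, and limma on log2(TPM + 10) 2 names. With 1 library left out 0 to 3 names and 0 to 1 members passed.

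For the NAc against the PFC in saline rats, members called numbered 4 with DESeq2 and with all 4 brain groups, 0 with no filter, 0 with the replicate block, 6 without PFC saline 8 and 12 and 0 to 4 with 1 library left out. Names called were 58, 61 and 56 with DESeq2, all 4 brain groups and without PFC saline 8 and 12, and 25 to 52 with 1 library left out (52 without PFC saline 12). In saline rats the numbers share no pairing by the rule used. In heroin rats names called were 34 with DESeq2, 14 with limma on log2(TPM + 1), 17 with all 4 brain groups and 53 with the replicate block. Members called were 1 with DESeq2 and 2 with the block. With 1 library left out 6 to 38 names and 0 to 2 members passed, 38 and 2 without NAc heroin 2 and 26 names without PFC heroin 5. The replicate block changed the call of no other count except arm balance in heroin rats.

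Hairpins called for arm balance were 2 in saline rats with a pseudocount of 5, 0 in heroin rats with higher count minimums or with the replicate block, 0 to 1 in saline rats and 0 to 4 in heroin rats with 1 library left out.

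Heroin differences in the PFC reversed without PFC saline 8 and 12: miR-376a-3p 0.25, miR-323-5p 0.14, miR-485-3p 0.086 and miR-770-5p 0.24, and miR-323-5p -0.15 for the NAc minus the PFC. With 1 library left out miR-485-3p ranged from -2.04 to 0.25, the last without PFC saline 12. In serum miR-134-5p was 0.35 and 0.20 with limma on log2(TPM + 1) and log2(TPM + 10), miR-541-5p 0.22 and 0.14. Without serum saline 10, 11 and 12 miR-134-5p was 1.11, miR-379-5p 1.13, miR-541-5p 0.64 and miR-300-3p 0.54. With 1 library left out miR-134-5p ranged from -0.81 to 0.26 and miR-541-5p from -0.59 to 0.12, the last of each without serum saline 12, miR-300-3p from -0.75 to 0.024 (the last without serum saline 10) and miR-382-5p from -0.11 (without serum heroin 6) to 0.31. For serum minus the NAc miR-410-3p was 0.24 with limma on log2(TPM + 10) and 0.21 without serum saline 10, 11 and 12.

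With all names, the summed level in PFC heroin, PFC saline, NAc heroin and NAc saline was 2.62, 2.64, 2.78 and 2.77%. In the same order it was 3.33, 3.31, 3.41 and 3.47% with repeated names counted once. Without the most abundant member it was 1.65, 1.78, 1.86 and 2.05%. Scaled by TMM factors it was 3.71, 3.47, 3.90 and 3.28%. The last scaling gave 0.0328% in serum heroin.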
